A study of Mus musculus with 16 samples.

Results

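The genes described here encode regulators of G protein signaling (RGS). The deposited gene annotation holds 21 *Rgs* genes among 32932 genes, and 7 of them, *Rgs1*, *Rgs2*, *Rgs3*, *Rgs10*, *Rgs14*, *Rgs16* and *Rgs19*, form the group examined. They were selected on values measured in these libraries, so their levels and their differences between organs and sort gates are given as a description without a test. For those comparisons the fit and the number of genes past its threshold are shown without reading anything from them. P-values of the 7 genes are given only for splits of the cells that the selection did not use. RGS proteins bind active G alpha subunits and speed up their GTP hydrolysis, which ends signals from chemokine receptors and other G protein-coupled receptors. In T cells such receptors steer entry into tissue, movement within lymph nodes and exit, and several RGS genes are induced or shut down upon activation. RGS1 dampens chemokine receptor signaling in lymphocytes, RGS2 acts mainly on Gq, RGS16 acts on Gi and Gq, and RGS10 is a small protein that is selective for Gi. RGS3 is made in several isoforms, RGS14 carries Ras-binding domains and a GoLoco motif beside its RGS domain, and RGS19 acts on Gi.

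CD4+ cells came from female 4get mice on a C57BL/6 background, in which IL-4eGFP reports cells competent to make IL-4. All mice had received 500 L3 larvae of *N. brasiliensis* subcutaneously and were killed on day 10, and there was no uninfected group. Per the paper's methods, their drinking water held neomycin and polymyxin B in the first days after infection. In the first run, IL-4eGFP+ cells from perfused lung and from mesenteric lymph nodes (MLN) of 2 mice at 13 weeks of age gave 4 libraries, here lung 1 and MLN 1 for one mouse and lung 2 and MLN 2 for the other. In the second run (node run), hashtagged cells from mediastinal lymph nodes (medLN) and MLN of 2 other mice at 10 weeks of age were sorted into 1 IL-4eGFP+ and 1 IL-4eGFP- library, so gate and library cannot be told apart. Lung was digested with enzymes and nodes were only mashed, the perfused lung can still hold intravascular cells, and the IL-4eGFP+ gate can include NKT cells and cells that carry the reporter without secreting IL-4. Nothing but the mouse number marks the samples of a group as separate, so the spread covers 2 mice per organ and run.

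Unique molecular identifiers (UMIs, 1 per captured transcript) were summed per gene over the cells of a sample. They were expressed as CPM, the usual count scaled to the UMI total of that sample without T cell receptor (TCR) genes. After filtering, 21462 cells remained, of which 1082 and 416 were from lung 1 and lung 2 and 2462 and 754 from MLN 1 and MLN 2. The node run contributed 8074 IL-4eGFP+ and 8674 IL-4eGFP- cells. The 2 runs differed in mice, age, read processing and filter on cells. Orders and overlaps of levels across runs, given below, are therefore no order of organs or gates. *Il4* in IL-4eGFP+ MLN cells, for example, was at 397.0 and 318.2 CPM in the first run and at 169.4 and 179.5 CPM in the node run. Total depth was 8507249 and 2798232 UMIs in the lung samples, 14512767 and 4477888 in the MLN samples and 7546083 to 10636927 in the node samples. All 8 T cell markers were detected in every sample. Summed B cell markers stayed at or below 43.6 CPM, with *Ms4a1* at 0 in both lung samples, and summed myeloid markers ranged from 1.79 CPM in lung 2 to 100.5 CPM in the node run. Summed markers of mast cells and basophils (*Mcpt8*, *Cpa3*, *Fcer1a*) were at 6.36 and 5.02 CPM in lung, where all 3 were detected, and at 0.138 and 0.449 CPM in MLN, where *Mcpt8* and *Fcer1a* were at 0. The regulatory markers *Foxp3* and *Ikzf2* summed to 18.2 and 29.4 CPM in lung and 65.9 and 65.4 CPM in MLN. *Foxp3* alone was at 1.53 and 2.51 CPM in lung and 0.762 and 0.898 CPM in MLN, so the higher sum in MLN came from *Ikzf2*. The part of regulatory cells in the differences below was not tested. The summed level of 14 early-response genes was 10338 and 9737 CPM in the lung samples and 1397 and 1084 CPM in the MLN samples. Pairs of libraries shared 0 to 147 cell barcodes, at most 1.86% of the smaller library.

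Over all kept cells, *Rgs10* had 54569 UMIs, *Rgs1* 23361, *Rgs19* 9949, *Rgs14* 6375, *Rgs3* 4280, *Rgs2* 3689 and *Rgs16* 1032. Of the other 14 family genes, *Rgs12* had 263 UMIs and *Rgs11* 202, 5 had between 1 and 48 UMIs, and 7 had none. All 7 genes examined were protein coding (GRCm38, GENCODE vM21). *Rgs2* (chr1:143999338-144004161, minus strand) and *Rgs1* (chr1:144242296-144249242, minus strand) lie 238.1 kb apart with *Rgs13* between them. *Rgs16* (chr1:153740349-153745468, plus strand) lies 9491 kb further along the same chromosome. *Rgs19* is at chr2:181688419-181693977, *Rgs3* at chr4:62559847-62704001, *Rgs10* at chr7:128373621-128418758 and *Rgs14* at chr13:55369732-55384687.

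Promoter windows of RefSeq (GRCm38.p6) were at hand for 5 of the 7 genes, in 8 windows of 300 bases. 3 of them are shown because the 2 genes on chromosome 1 and the gene on chromosome 7 differed between lung and MLN in opposite directions. The 270 bases printed run from 250 bases before the start to 20 after it, in the direction of the gene. They are chr1:144004130-144004399 (minus strand) for *Rgs2*, chr1:153740103-153740372 (plus strand) for *Rgs16* and chr7:128418153-128418422 (minus strand) for *Rgs10*. Capitals mark the match to a searched motif, an E-box (CAGCTG).
Rgs2: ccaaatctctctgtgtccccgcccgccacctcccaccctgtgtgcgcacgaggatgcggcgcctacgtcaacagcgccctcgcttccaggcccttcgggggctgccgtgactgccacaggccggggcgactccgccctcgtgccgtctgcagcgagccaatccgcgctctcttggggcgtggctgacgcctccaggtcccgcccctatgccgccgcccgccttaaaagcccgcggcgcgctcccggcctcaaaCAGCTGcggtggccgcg
Rgs16: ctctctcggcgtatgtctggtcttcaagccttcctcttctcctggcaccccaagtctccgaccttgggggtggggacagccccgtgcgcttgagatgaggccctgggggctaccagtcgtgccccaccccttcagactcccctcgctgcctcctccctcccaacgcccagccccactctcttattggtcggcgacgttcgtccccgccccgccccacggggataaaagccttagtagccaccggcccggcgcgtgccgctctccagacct
Rgs10: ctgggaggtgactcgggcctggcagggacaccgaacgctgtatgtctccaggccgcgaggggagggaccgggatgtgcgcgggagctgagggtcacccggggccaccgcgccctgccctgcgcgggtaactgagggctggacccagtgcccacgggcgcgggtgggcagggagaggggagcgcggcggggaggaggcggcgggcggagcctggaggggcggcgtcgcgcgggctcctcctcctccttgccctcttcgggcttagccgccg
Windows were searched on both strands for AP-1 (TGANTCA), CRE (TGACGTCA), the NFAT core (GGAAAN), the E-box (CANNTG) and NF-kB, whose motif ends in letters that also read as an NFAT core. GC content of the full windows was 70.0% for *Rgs2*, 66.0% for *Rgs16* and 76.0% for *Rgs10*. Of the 8 windows of the group, none held an AP-1, CRE or NF-kB match, 3 held an NFAT core and 4 an E-box. Among 32851 windows of all genes, 7.81% held an AP-1 match, 1.79% a CRE, 61.2% an NFAT core, 72.3% an E-box and 0.411% an NF-kB match. A match describes letters in a window only, and nothing about binding of a factor follows from its presence or absence.

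*Rgs1*, *Rgs2* and *Rgs16* had their highest levels in lung IL-4eGFP+ cells. *Rgs1* was at 1146 and 1346 CPM in lung 1 and lung 2 and at 157.5 and 148.0 CPM in MLN 1 and MLN 2. In the node run it was at 128.6, 132.1, 138.0 and 111.0 CPM in IL-4eGFP+ cells of medLN 1, medLN 2, MLN 1 and MLN 2, and at 63.8, 78.7, 61.3 and 59.3 CPM in IL-4eGFP- cells of the same samples. Both lung samples lay far above all others, and the IL-4eGFP+ and IL-4eGFP- node samples did not overlap. From the highest group down, the order was lung, MLN of the first run, medLN IL-4eGFP+, MLN IL-4eGFP+, medLN IL-4eGFP- and MLN IL-4eGFP-, where the medLN and MLN IL-4eGFP+ groups overlapped. A *Rgs1* UMI was found in 84.1% of lung 1 cells (exact 95% interval 81.8 to 86.2) and 80.05% of lung 2 cells (75.9 to 83.8), against 38.0% (36.1 to 39.9) and 36.3% (32.9 to 39.9) of MLN cells. After thinning each cell to 2000 UMIs, the shares were 66.2% and 67.9% in lung and 23.0% and 20.5% in MLN. Both the share of positive cells and the number of transcripts in a positive cell were thus higher in lung. Cells with at least 1 *Rgs1* UMI held a mean of 10.7 and 11.3 of them in lung and 2.43 and 2.41 in MLN. These intervals cover counting error only, and in a sum over cells fewer cells of a type and less RNA per cell cannot be told apart.

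*Rgs2* was at 293.8 and 293.6 CPM in the lung samples and at 6.65 and 4.49 CPM in the MLN samples. In the node run its level lay between 2.36 and 5.39 CPM in IL-4eGFP+ cells and between 2.34 and 4.12 CPM in IL-4eGFP- cells. Lung was the only group set apart, and the 5 lymph node groups formed a run of low values in which neighbors overlapped except for medLN IL-4eGFP+ and MLN IL-4eGFP-. A *Rgs2* UMI was found in 65.0% of lung 1 cells (62.0 to 67.8) and 60.1% of lung 2 cells (55.2 to 64.8). In MLN 1 and MLN 2 it was found in 3.66% (2.95 to 4.47) and 2.65% (1.63 to 4.07) of cells, mostly as a single UMI. Thinned to equal depth, 38.2% and 37.0% of lung cells and 1.29% and 1.346% of MLN cells had a *Rgs2* UMI. The contrast between the organs was therefore seen at equal depth as well, although thinning lowered the shares in both.

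*Rgs16* was at 45.8 and 52.7 CPM in lung and at 8.38 and 11.2 CPM in MLN of the first run. In IL-4eGFP+ cells of medLN 1, medLN 2, MLN 1 and MLN 2 of the node run it was at 4.96, 9.73, 5.78 and 4.44 CPM, and in IL-4eGFP- cells at 2.47, 4.65, 0.746 and 3.31 CPM. Again only lung stood apart, and every neighboring pair of lymph node groups overlapped. Few cells carried the transcript anywhere: 9.52% and 9.62% of lung cells and 2.52% and 3.18% of MLN cells, or 5.81%, 5.39%, 1.45% and 1.62% after thinning. Those cells held a mean of 3.78 and 3.68 *Rgs16* UMIs in lung and 1.95 and 2.08 in MLN. The gene was thus unlike *Rgs1* and *Rgs2* in being limited to a minority of lung cells.

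*Rgs3* and *Rgs10* differed between lung and MLN in the opposite direction, with MLN of the first run the highest group. *Rgs10* was at 319.6 and 285.3 CPM in lung and at 797.0 and 865.7 CPM in MLN. In the node run it was at 570.2, 593.9, 742.5 and 609.9 CPM in IL-4eGFP+ cells and at 360.9, 349.7, 405.6 and 349.1 CPM in IL-4eGFP- cells of medLN 1, medLN 2, MLN 1 and MLN 2. Lung was the lowest of the 6 groups, with the IL-4eGFP- cells next but from the other run. The 2 IL-4eGFP- groups were the only neighbors that overlapped. A *Rgs10* UMI was found in 79.8% and 71.6% of lung cells and 91.7% and 91.5% of MLN cells, or in 44.9%, 38.2%, 74.0% and 74.7% at equal depth. Positive cells held a mean of 3.14 and 2.67 *Rgs10* UMIs in lung and 5.10 and 5.59 in MLN. Most lung cells therefore still carried the transcript, with fewer copies.

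*Rgs3* was at 25.0 and 40.9 CPM in lung, 73.6 and 76.1 CPM in MLN of the first run, 40.2 to 57.6 CPM in IL-4eGFP+ node cells and 21.2 to 28.3 CPM in IL-4eGFP- node cells. The lung values lay within the range of the node samples, and lung 2 overlapped the IL-4eGFP+ node cells while lung 1 overlapped the IL-4eGFP- cells. IL-4eGFP+ MLN cells were themselves lower in the node run, at 57.6 and 43.5 CPM, so lung cannot be placed against the gates. The share of cells with a *Rgs3* UMI at equal depth was 4.59% and 8.58% in lung and 13.9% and 14.5% in MLN.

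*Rgs14* and *Rgs19* varied least. *Rgs14* was at 57.4 and 82.4 CPM in lung, 70.6 and 78.4 CPM in MLN, 51.3 to 64.5 CPM in IL-4eGFP+ node cells and 62.1 to 75.0 CPM in IL-4eGFP- node cells. All 6 groups overlapped their neighbors, and the 2 lung samples spanned nearly the whole range. *Rgs19* was at 89.7 and 107.9 CPM in lung, 92.7 and 83.8 CPM in MLN, 91.4 to 98.7 CPM in IL-4eGFP+ node cells and 107.7 to 124.5 CPM in IL-4eGFP- node cells. It was the only gene of the group whose highest group was an IL-4eGFP- one, with all 4 IL-4eGFP- samples above all 4 IL-4eGFP+ samples of the node run. Lung overlapped both gates.

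**Figure D1:**
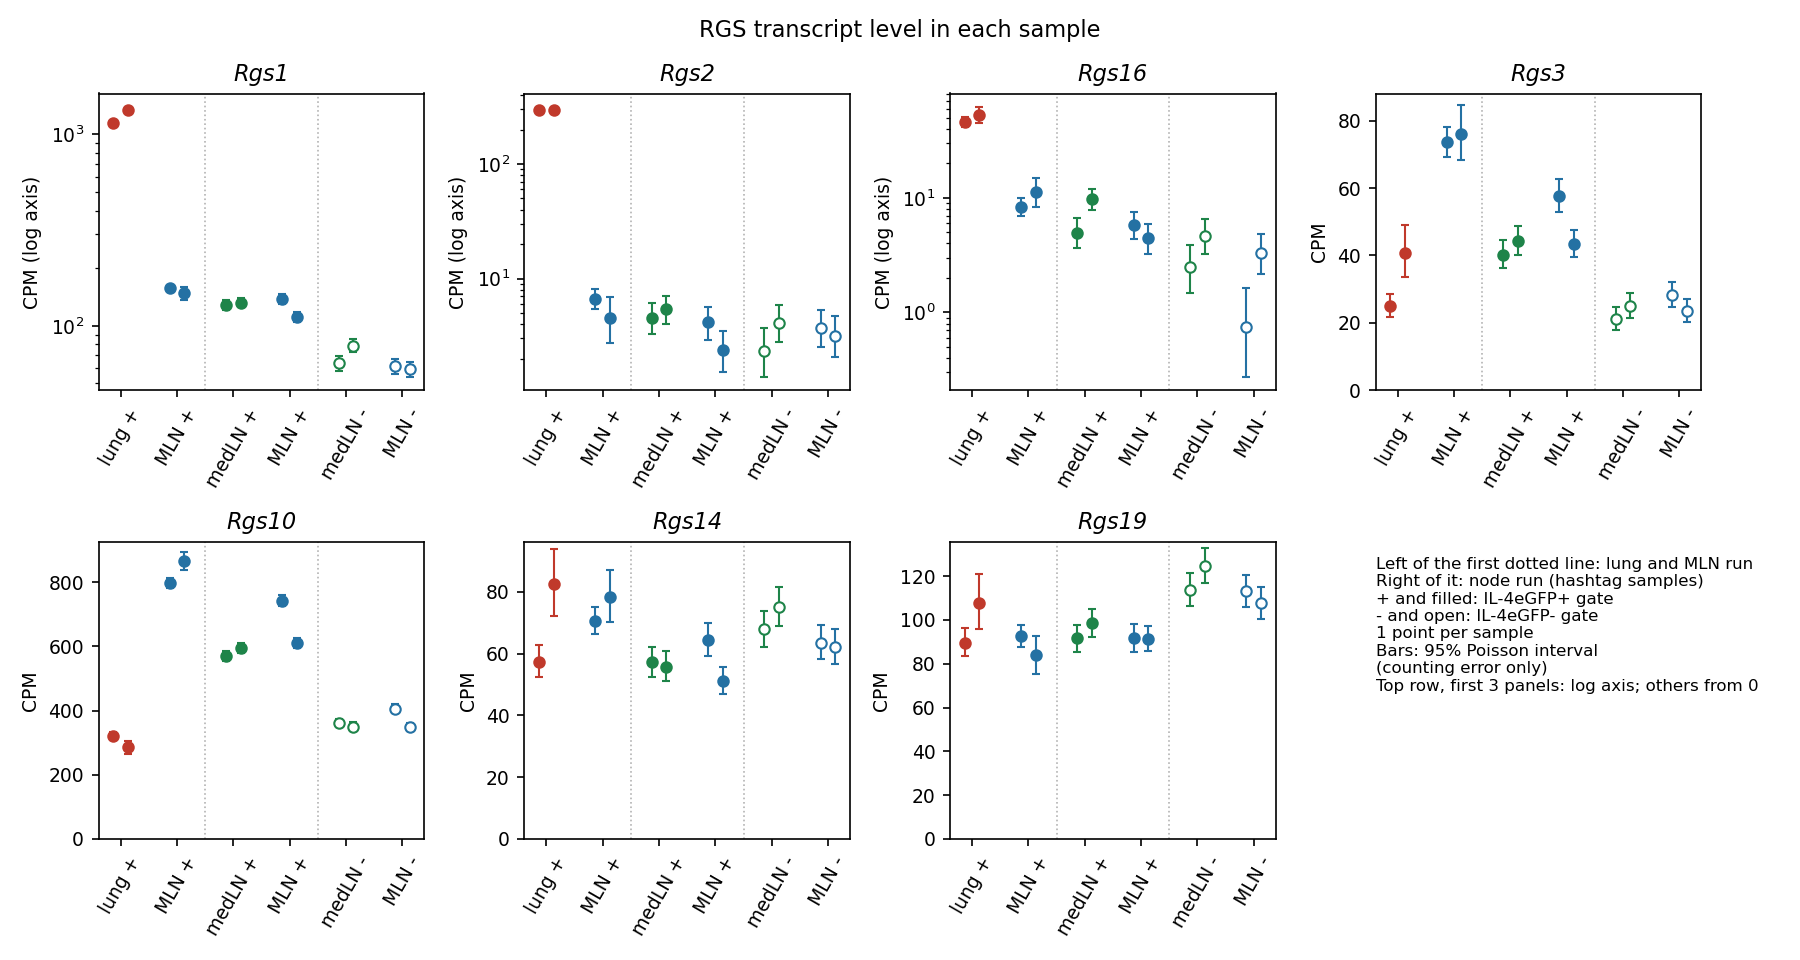
Level of each RGS gene in the 12 samples, in CPM, with *Rgs1*, *Rgs2* and *Rgs16* on log axes and the others on linear axes from 0. Each point is 1 sample (2 per group), bars are its 95% Poisson interval (counting error only), and open points are the IL-4eGFP- gate. *Rgs1*, *Rgs2* and *Rgs16* were highest in the lung samples (1146 and 1346, 293.8 and 293.6, and 45.8 and 52.7 CPM), *Rgs10* was lowest there (319.6 and 285.3 CPM).

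The first comparison asked how Th2 cells of a peripheral organ differ from those of a lymph node. In edgeR's quasi-likelihood fit the log2 fold change of lung over MLN was 5.75 (standard error, SE, 0.177) for *Rgs2*, 3.15 (SE 0.131) for *Rgs1* and 2.52 (SE 0.165) for *Rgs16*. It was -1.32 (SE 0.139) for *Rgs10* and -1.12 (SE 0.168) for *Rgs3*. *Rgs19* (0.28, SE 0.115) and *Rgs14* (0.01, SE 0.141) differed little. Past an adjusted p of 0.05 lay 5 of the 7 genes, 3 higher and 2 lower in lung, beside 31.0% of all 10590 genes tested. Because the genes were selected on this contrast, nothing is read from that count.

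The early-response genes that separated lung from MLN, such as *Fos* and *Egr1*, are known to respond to tissue digestion as well as to activation. A *Fos* UMI was found in 762 of 1082 and 339 of 416 lung cells and in 433 of 2462 and 32 of 754 MLN cells. When all cells with a *Fos* UMI were left out, a choice made after seeing the data, the log2 fold change was 5.71 for *Rgs2*, 3.09 for *Rgs1*, 3.16 for *Rgs16*, -1.20 for *Rgs10* and -1.55 for *Rgs3*. The difference was thus of similar size or larger for 4 of these genes and slightly smaller for *Rgs10* in cells without detected *Fos*. Lung cells without a *Fos* UMI were digested as well, so organ and digestion cannot be told apart. The part of digestion was not tested. Leaving out cells with a B cell or myeloid marker gave 5.83 for *Rgs2*, 3.13 for *Rgs1* and 2.58 for *Rgs16*.

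The medLN and MLN of the node run drain lung and gut, respectively. The selection used the hashtag values, so this contrast is a description too. In the edgeR fit of IL-4eGFP+ cells 0 of the 7 genes lay past the threshold, beside 1.28% of all genes, and in that of IL-4eGFP- cells 0 did, beside 0.178%, from which nothing is read. The log2 fold change of medLN over MLN was -0.23 (SE 0.0785) for *Rgs10* in IL-4eGFP+ cells and -0.14 (SE 0.0626) in IL-4eGFP- cells. For *Rgs1* it was 0.06 (SE 0.0931) and 0.19 (SE 0.0981), for *Rgs19* 0.05 (SE 0.0662) and 0.05 (SE 0.0696). The precision was lowest for *Rgs16* (0.52, SE 0.320, and 0.76, SE 0.522) and *Rgs2* (0.62, SE 0.308, and -0.16, SE 0.334), which had few UMIs in nodes. The value of *Rgs10* in IL-4eGFP+ cells was -0.35 when MLN 2 was left out. The samples of a node pair came from 1 mouse, and with the mouse as a block the IL-4eGFP- comparison called 65 genes in place of 19, with 0 of the 7 in both.

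Between the sort gates of the node run, 6 of the 7 genes differed past the threshold, beside 63.0% of all genes, and nothing is read from this count for the same reason. The log2 fold change of IL-4eGFP+ over IL-4eGFP- was 0.97 (SE 0.337) for *Rgs16*, 0.76 (SE 0.0735) for *Rgs1*, 0.72 (SE 0.0951) for *Rgs3* and 0.58 (SE 0.0568) for *Rgs10*. *Rgs19* (-0.49, SE 0.0441) and *Rgs14* (-0.43, SE 0.0685) were lower in IL-4eGFP+ cells, and *Rgs2* was at 0.08 (SE 0.249). *Rgs16* lost its call without medLN 2 (0.74) or MLN 1 (0.89) of the IL-4eGFP+ library and without medLN 1 (0.81) or MLN 1 (0.70) of the IL-4eGFP- library. Because the IL-4eGFP- gate also holds regulatory T cells, the fit was repeated without cells that had a *Foxp3* UMI, again chosen after seeing the data, which gave 1.305 for *Rgs1* and 1.95 for *Rgs16*. The sum of the regulatory markers *Foxp3* and *Ikzf2* was 115.9 to 185.1 CPM in IL-4eGFP- and 51.1 to 85.6 CPM in IL-4eGFP+ samples.

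**Figure D2:**
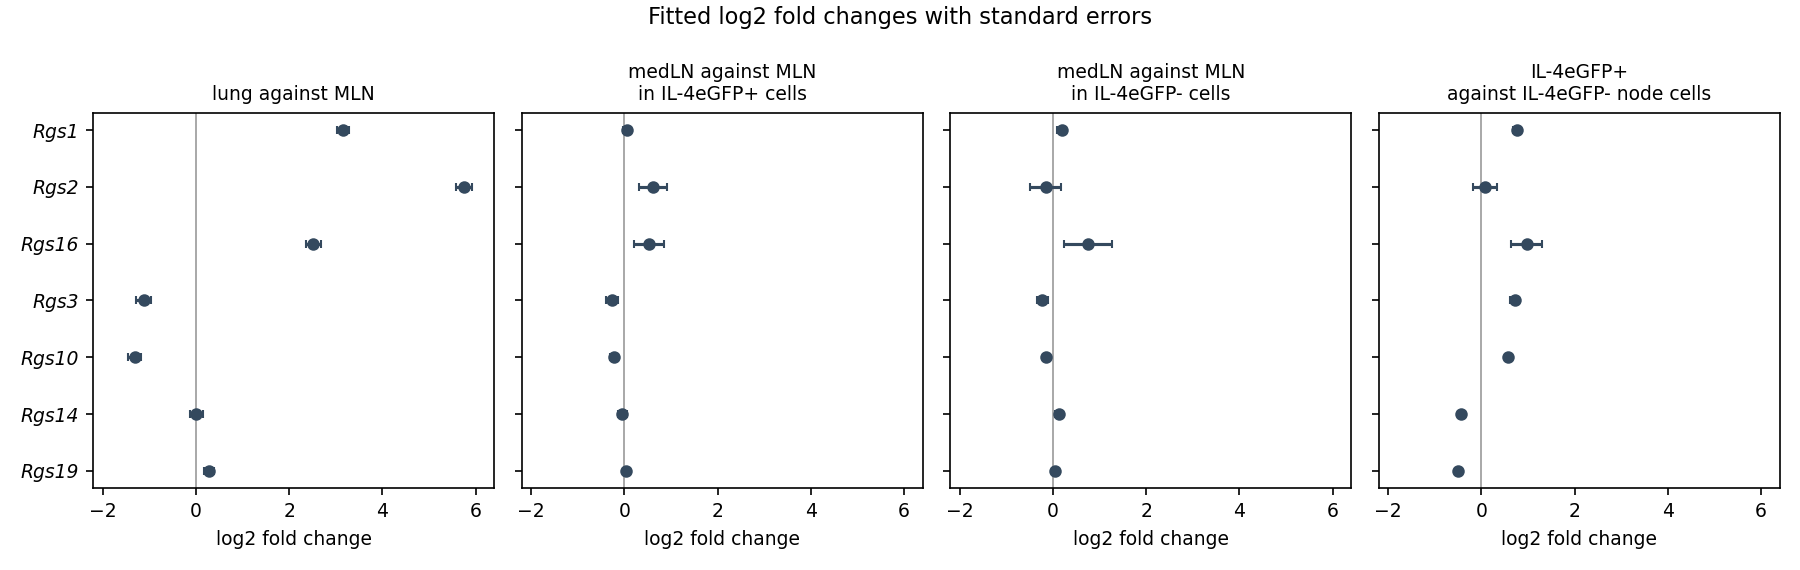
Log2 fold change of each RGS gene in the organ and gate comparisons, with points for the edgeR estimate and bars for the standard error derived from its F statistic. Lung over MLN ranged from 5.75 for *Rgs2* to -1.32 for *Rgs10*, while the medLN over MLN values lay between -0.27 and 0.76.

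Within the IL-4eGFP- node cells, the 7 genes were next compared between cells with and without a *Foxp3* UMI, *Foxp3* being the lineage factor of regulatory T cells. There were 220, 257, 189 and 232 cells with a *Foxp3* UMI in medLN 1, medLN 2, MLN 1 and MLN 2 and 1834 to 2060 without, and a cell without a UMI can still express the gene. *Rgs1* was at 183.2, 246.9, 275.6 and 254.3 CPM in cells with and at 47.3, 52.0, 41.7 and 36.9 CPM in cells without a *Foxp3* UMI. *Rgs10* was at 568.6, 508.4, 612.1 and 493.9 CPM against 332.1, 324.4, 386.6 and 332.5 CPM, and *Rgs3* at 31.9, 47.5, 41.5 and 51.9 CPM against 19.7, 21.4, 27.1 and 20.3 CPM. For all 3 genes every sample of cells with a *Foxp3* UMI lay above every sample of cells without. How many of all genes were separated in this way was not counted, so nothing is read from it. Of 6 genes tested 4 were called, beside 24.4% of all genes. *Rgs1* rose by a log2 fold change of 2.28 (SE 0.123, edgeR adjusted p = 3.4e-09), *Rgs3* by 0.83 (SE 0.156, edgeR adjusted p = 0.000873) and *Rgs10* by 0.52 (SE 0.0652, edgeR adjusted p = 2.1e-05). In the IL-4eGFP+ library *Rgs10* was at 570.2 to 742.5, *Rgs3* at 40.2 to 57.6 and *Rgs1* at 111.0 to 138.0 CPM. The levels of *Rgs10* and *Rgs3* were thus not particular to cells with a *Foxp3* UMI. *Rgs19*, at 113.9, 107.5, 105.2 and 88.9 CPM against 113.6, 127.2, 113.9 and 109.8 CPM, fell by 0.31 on the log2 scale (SE 0.0907, edgeR adjusted p = 0.0212). The groups overlapped for *Rgs19*, with no fall of CPM in medLN 1. Its call was lost with DESeq2 (adjusted p = 0.102), without medLN 2 (edgeR adjusted p = 0.108) and without MLN 2 (edgeR adjusted p = 0.0711).

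*Rgs14*, at 75.6, 88.1, 96.3 and 90.1 CPM against 66.8, 72.9, 60.5 and 58.9 CPM, was higher in all 4 samples without passing the threshold (0.28, SE 0.113, edgeR adjusted p = 0.0910). *Rgs2* was not called either (-0.45, SE 0.587, edgeR adjusted p = 0.653). *Rgs16* did not pass the filter on low counts, with 13, 25, 1 and 10 UMIs in cells with and 6, 10, 5 and 16 UMIs in cells without a *Foxp3* UMI. The corresponding levels were 13.8, 24.2, 1.48 and 12.3 CPM against 0.887, 1.54, 0.679 and 2.27 CPM, higher in each sample but resting on a single UMI in MLN 1. The log2 fold change of *Rgs16* was 3.01 with DESeq2, 3.03 without a filter and 3.26 without MLN 1. These values are given without a test, since at these levels passing a filter depends on the group where the gene is high. The cells with a *Foxp3* UMI were slightly shallower (median 2768 to 3158 UMIs) than those without (3320 to 3410), and at equal depth the log2 fold change was 2.71 for *Rgs1* and 0.60 for *Rgs10*.

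The rise of *Rgs1* with *Foxp3* was smaller in medLN than in MLN, by 0.67 on the log2 scale (difference -0.67, SE 0.144, edgeR adjusted p = 0.00437), beside 2.98% of all genes called for such a difference. It was -0.55 without medLN 1 (edgeR adjusted p = 0.100) and -0.65 without MLN 2 (edgeR adjusted p = 0.132), so the call rests on those samples.

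Among IL-4eGFP+ node cells, those with a UMI of *Il21*, a cytokine of follicular helper T cells, were compared with the rest. *Rgs16* was already known from first-run cells that express both *Il21* and *Bcl6*, another follicular helper gene, and the split was chosen knowing this. They numbered 140, 127, 101 and 134 in medLN 1, medLN 2, MLN 1 and MLN 2, against 1918, 1893, 1891 and 1870 other cells. *Rgs16* was at 22.8, 51.0, 16.5 and 16.9 CPM in *Il21* cells, from 14, 30, 9 and 15 UMIs, and at 3.73, 6.99, 5.11 and 3.30 CPM in the others. *Rgs10* was at 889.6, 923.5, 995.4 and 827.8 CPM against 548.1, 572.0, 726.5 and 590.0 CPM. *Rgs1* was at 53.8, 64.6, 91.7 and 77.9 CPM against 133.8, 136.6, 141.0 and 114.0 CPM. The 2 kinds of cells did not overlap for any of the 3 genes, with *Rgs16* and *Rgs10* higher and *Rgs1* lower in all 4 samples of *Il21* cells. The share of all genes without overlap was not counted here either. Of 7 genes tested 3 were called, beside 9.10% of all genes. *Rgs16* rose by 2.41 (SE 0.269, edgeR adjusted p = 1.8e-06) and *Rgs10* by 0.54 (SE 0.0589, edgeR adjusted p = 1.4e-06), whereas *Rgs1* fell by 0.89 on the log2 scale (SE 0.125, edgeR adjusted p = 3.2e-05). The median depth was 3363 to 5185 UMIs in *Il21* cells and 3150 to 3612 in the others, and at equal depth the log2 fold changes were 2.37, 0.50 and -1.10 for *Rgs16*, *Rgs10* and *Rgs1*. *Rgs14* was at -0.39 (SE 0.137, edgeR adjusted p = 0.0792). *Rgs2*, *Rgs3* and *Rgs19* were not called, and none of the 7 passed edgeR's threshold for a difference of this effect between medLN and MLN, beside 1.22% of all genes. At an unadjusted p below 0.05 were 3 of them, *Rgs1*, *Rgs3* and *Rgs10*. The share of all genes at that threshold was not counted for this difference, so nothing is read from the 3.

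**Figure D3:**
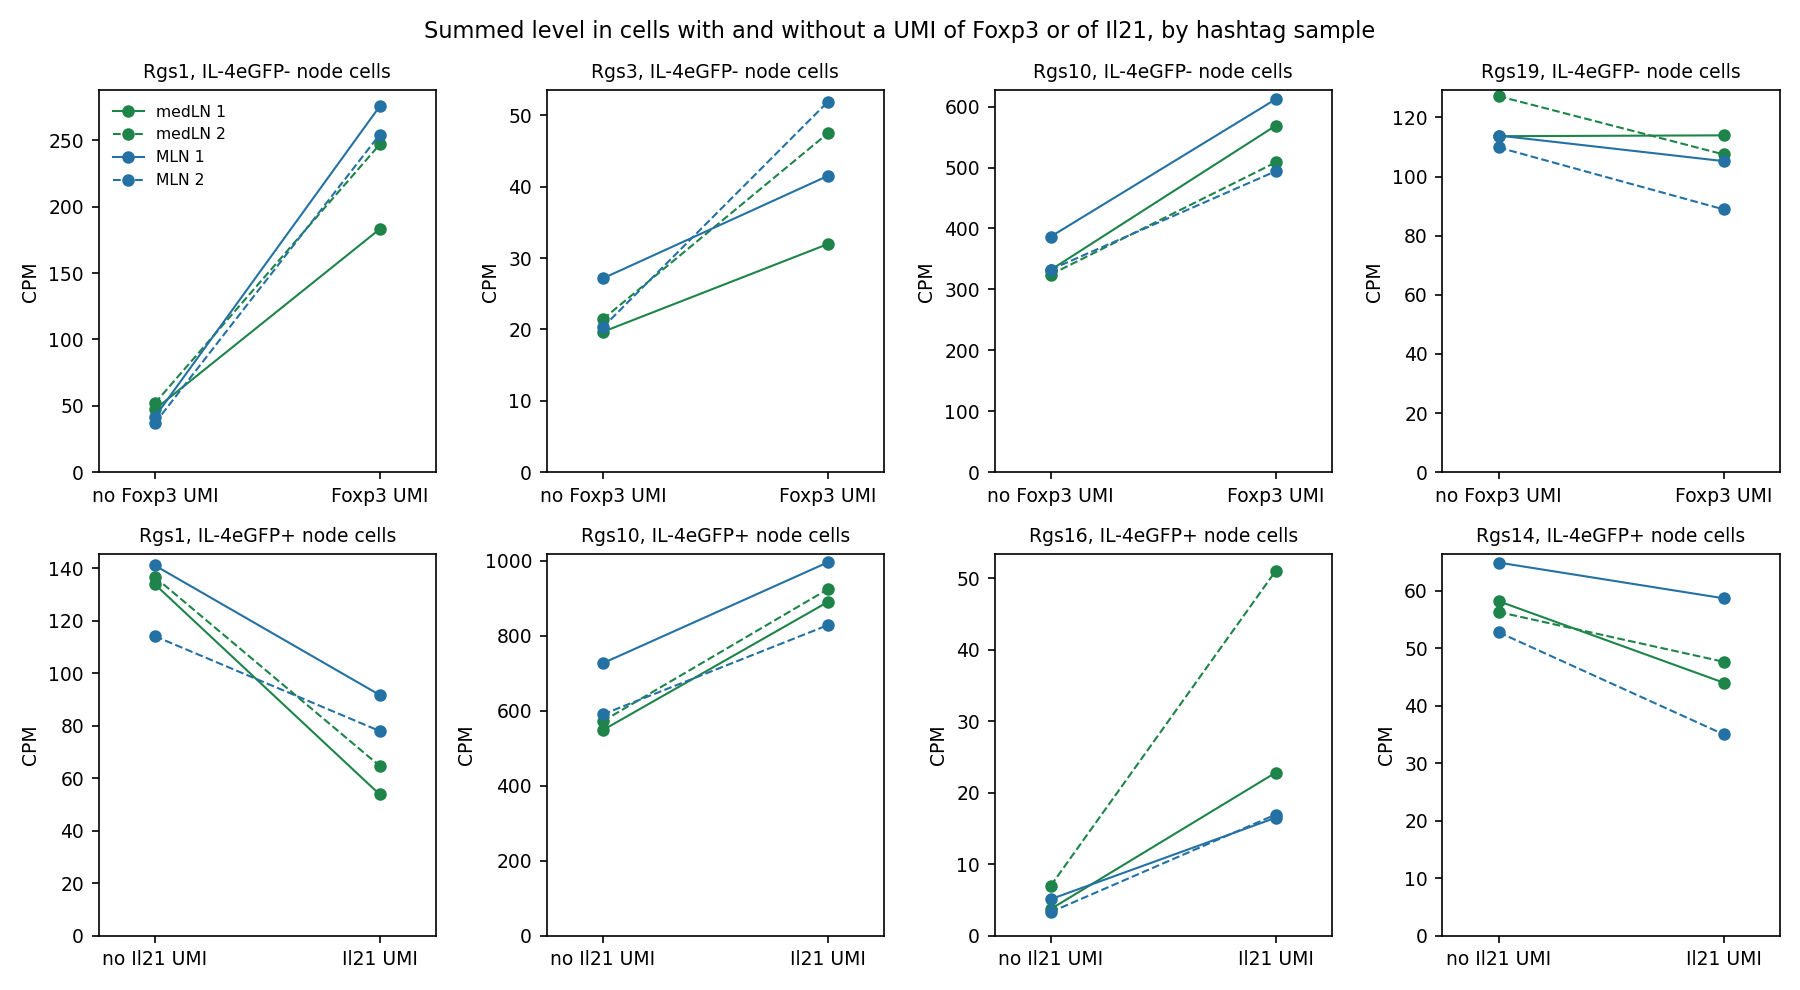
Level of RGS genes in CPM in cells with and without a *Foxp3* UMI (IL-4eGFP- node cells) and with and without an *Il21* UMI (IL-4eGFP+ node cells). Lines join the 2 kinds of cells of 1 sample. *Rgs1* was higher with *Foxp3* (183.2 to 275.6 against 36.9 to 52.0 CPM) and lower with *Il21* (53.8 to 91.7 against 114.0 to 141.0 CPM) in all 4 samples.

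In the lung, cells with a UMI of *Il5* or *Il13*, cytokines that drive eosinophilia and mucus secretion, were set beside the others as a description, since *Rgs16* was already known in these cells. *Rgs16* was at 93.4 and 97.8 CPM in cytokine-positive cells of lung 1 and lung 2 and at 19.7 and 37.4 CPM in the others, without overlap. The log2 fold change was 1.93 (SE 0.141), and 2.09 at equal depth. *Rgs16* was the 1 of 7 genes past the threshold, beside 9.61% of all genes. *Rgs1* was at 1100 and 1304 CPM in cytokine-positive and 1171 and 1360 CPM in other lung cells, and *Rgs2* at 303.1 and 311.9 against 288.7 and 287.4 CPM. For *Rgs1* the difference was smaller than that between the lung samples, and *Rgs2* was slightly higher in the cytokine-positive cells of both.

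The TCR sequences allowed a split that uses no gene expression, between cells of expanded clones (2 or more cells with the same TCR in a mouse) and of clones seen in a single cell. Only a small part of each organ was sequenced, so a clone seen once can still be an expanded one. The paper found hardly any expanded clones in its innate-like/NKT cluster of MLN, so the classes can also differ in cell type. Expanded clones held 408, 88, 730 and 98 cells of lung 1, lung 2, MLN 1 and MLN 2, against 674, 328, 1732 and 656 cells of single-cell clones. *Rgs1* was at 1257, 1586, 198.5 and 149.3 CPM in expanded clones and at 1079, 1283, 141.0 and 147.8 CPM in single-cell clones. It was higher in expanded clones in each of the 4 libraries, by least in MLN 2. *Rgs1* was the 1 of 7 genes called, beside 0.195% of all genes, with a log2 fold change of 0.29 (SE 0.0537, edgeR adjusted p = 0.0411). The call was lost with DESeq2 (adjusted p = 0.204), without the library as a block, and without lung 1, lung 2 or MLN 1. *Rgs2* was at 0.16 (SE 0.0762, edgeR adjusted p = 0.841).

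*Rgs16* differed between the organs in this split. It was at 36.7 and 32.9 CPM in expanded and 51.4 and 57.8 CPM in single-cell clones of lung 1 and lung 2, but at 14.0 and 26.1 CPM in expanded and 6.13 and 9.19 CPM in single-cell clones of MLN 1 and MLN 2. Both lung libraries thus had less and both MLN libraries more *Rgs16* in expanded clones. Over all libraries the log2 fold change was 0.0060 (SE 0.252), whereas the effect in lung minus that in MLN was -1.84 (SE 0.304, edgeR adjusted p = 0.0116), beside 0.246% of all genes called for such a difference. Leaving out any 1 library gave -2.08 to -1.74, but each of these fits left 1 library in an organ. Few cells carried the values: in expanded clones the *Rgs16* UMIs were 117 in 31 cells of lung 1, 19 in 8 cells of lung 2, 58 in 28 cells of MLN 1 and 14 in 5 cells of MLN 2. A single cell held 10 of the UMIs in lung 2, 10 in MLN 1 and 9 in MLN 2, so most UMIs of lung 2 and of MLN 2 came from 1 cell each. The positive cells of expanded clones came from 29, 8, 27 and 4 different clones. In lung 2 the share of cells with a *Rgs16* UMI was nearly the same, with 8 of 88 cells in expanded and 32 of 328 in single-cell clones.

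Cells with and without a *Fos* UMI within the same lung and MLN libraries were compared as sums per library. This sets the RGS genes beside *Fos* only, 1 of the early-response genes. *Rgs2* was at 302.9 and 306.5 CPM in lung cells with and 267.2 and 224.8 CPM in lung cells without a *Fos* UMI, and at 11.8 and 0 CPM against 5.46 and 4.69 CPM in MLN. The 0 stands for 32 MLN 2 cells and allows a share of up to 9.38%, the share that 3 cells would give. *Rgs16* was at 36.2 and 49.4 CPM against 74.2 and 70.4 CPM in lung and at 8.85 and 27.0 CPM against 8.27 and 10.5 CPM in MLN. Lung cells without a *Fos* UMI still lay far above all MLN cells for *Rgs2*, and above them for *Rgs16*. *Rgs1* was at 1105 and 1375 CPM in lung cells with and at 1266 and 1192 CPM in those without a *Fos* UMI, without a common direction. None of the 7 genes was called by edgeR, beside 0.256% of all genes, and none by DESeq2. Of the 7, *Rgs2* (0.36, SE 0.120, edgeR adjusted p = 0.442) and *Rgs16* (-0.62, SE 0.208, edgeR adjusted p = 0.428) had an unadjusted p below 0.05, beside 572 of all 9359 genes. None of the 7 passed edgeR's threshold for a difference of this effect between lung and MLN, beside 0% of all genes. Of the 7, 1 gene, *Rgs16*, had an unadjusted p below 0.05 for it, and the share of all genes at that threshold was not counted.

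**Figure D4:**
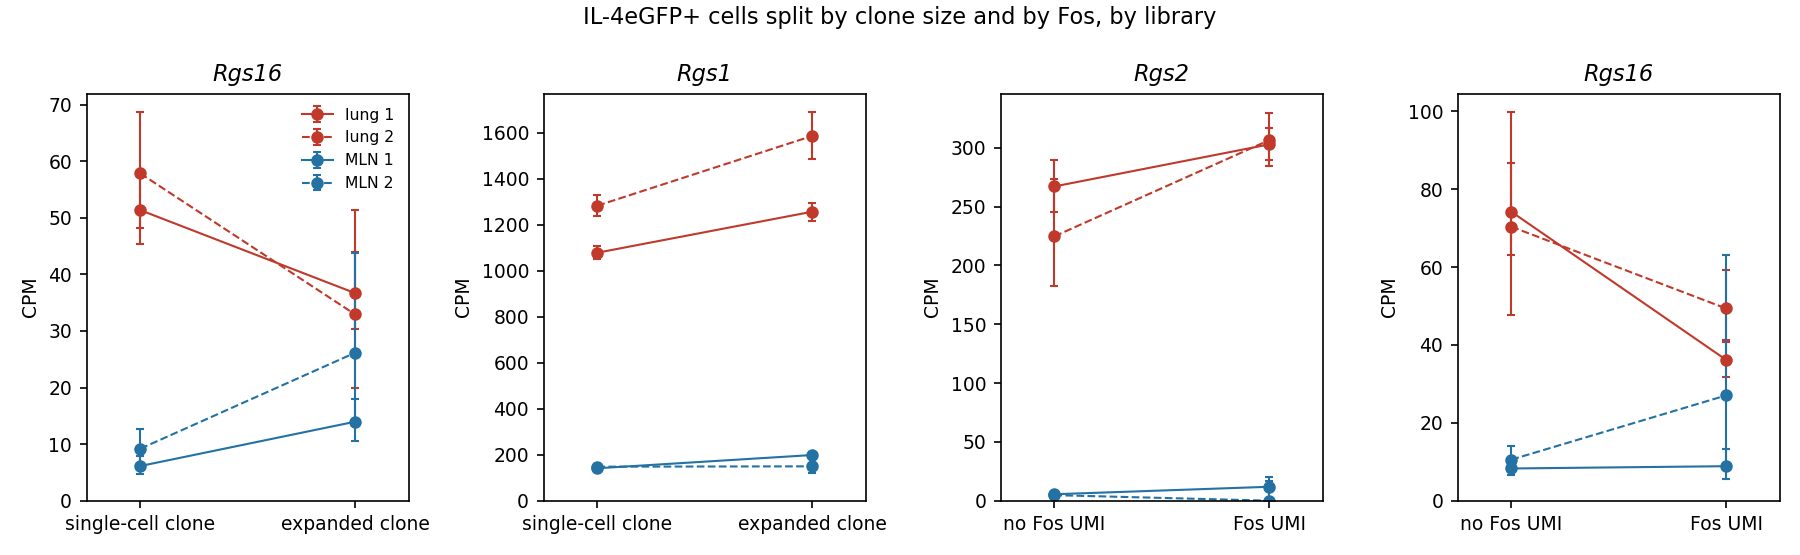
Level of RGS genes in CPM in cells of expanded and single-cell clones and in cells with and without a *Fos* UMI, in the 4 libraries of lung and MLN. Lines join the 2 kinds of cells of 1 library and bars are 95% Poisson intervals (counting error only). *Rgs16* was lower in expanded clones in both lung libraries (36.7 and 32.9 against 51.4 and 57.8 CPM) and higher in both MLN libraries (14.0 and 26.1 against 6.13 and 9.19 CPM).

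The other genes of the pathway give the setting of these differences. Between lung and MLN 31.0% of all genes were called, beside which each list is to be read. The lists were chosen with earlier results of these data known, and the genes named are the highest or lowest called of each. Their p-values are therefore no independent support. Of 19 listed chemokine and lipid receptors of T cells, most of them coupled to Gi, 16 could be tested between lung and MLN, of which 12 were higher and 1 was lower in lung, with a median log2 fold change of 1.10 (all genes -0.0053). *Ccr8*, a chemokine receptor of Th2 cells in tissue, rose by 6.05 (180.4 and 145.2 against 2.29 and 3.82 CPM, edgeR adjusted p = 4.3e-07), and *Ltb4r1*, a leukotriene B4 receptor, by 4.18 (edgeR adjusted p = 2.6e-06). *Cxcr5*, which leads cells to follicles, fell by 4.58 on the log2 scale (6.13 and 2.15 against 143.3 and 124.0 CPM, edgeR adjusted p = 2.5e-06). Of 13 G alpha subunits 9 were tested and 4 were higher, none lower. Among them *Gna15*, of the Gq class, was at 110.1 and 105.0 CPM in lung and 13.4 and 17.97 CPM in MLN (2.97, SE 0.161, edgeR adjusted p = 1.9e-06). *Gna13* followed with 1.08 (edgeR adjusted p = 0.000163). Of 14 G beta and gamma subunits 9 were tested, with 3 higher and 1 lower, and of 9 receptor kinases and arrestins 6 were tested, with 1 higher, *Arrb2* (0.55, edgeR adjusted p = 0.00504). None of 7 other G protein regulators was called by edgeR, and 0 of them had an unadjusted p below 0.05, beside 4489 of all 10590 genes. All 14 early-response genes were called, 13 higher and 1 lower in lung (median 3.21).

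The lists were counted in the same way in the splits within node samples. With a *Foxp3* UMI, where 24.4% of all genes were called, 10 of 15 tested receptors were higher and 2 lower. There, 3 of 8 G alpha subunits and 4 of 7 G beta and gamma subunits were higher and none lower, 2 of 6 receptor kinases and arrestins were lower, and of 7 other regulators 1 was higher and 3 were lower. With an *Il21* UMI, where 9.10% of all genes were called, 2 of 16 receptors were higher and 8 lower, 2 of 9 G alpha subunits were higher and 2 lower, and 1 of 7 other regulators was lower. Of 8 G beta and gamma subunits and 6 receptor kinases and arrestins edgeR called 0, with 4 and 0 at an unadjusted p below 0.05, beside 2076 of all 10275 genes. In expanded clones, beside 0.195% of all genes, 1 of 16 receptors was higher and 1 lower. Between the gates, where 63.0% of all genes were called, 13 of 17 receptors, 8 of 9 G alpha subunits and 7 of 9 G beta and gamma subunits were. So were 4 of 7 other regulators and 2 of 6 receptor kinases and arrestins. Between medLN and MLN 6 of 16 receptors were called in IL-4eGFP+ cells (1.28% of all genes) and 1 of 16 in IL-4eGFP- cells (0.178%).

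Of the other RGS genes, *Rgs12*, a large protein with several domains, was at 11.1 and 10.0 CPM in lung and 1.66 and 2.02 CPM in MLN (log2 fold change 2.73, SE 0.305, edgeR adjusted p = 0.000162). *Rgs11* was at 0.471 and 0.717 CPM in lung, 1.94 and 2.25 CPM in MLN, 0.740 to 0.9504 CPM in IL-4eGFP+ node cells and 2.53 to 5.84 CPM in IL-4eGFP- node cells. It is given without a test, since at these levels the filter on low counts depends on the group where it is high. *Rgs13*, *Rgs18* and *Rgs5*, known from B cells and mast cells, platelets and pericytes, together reached at most 0.798 CPM in a sample. In these 12 samples the family was thus represented almost entirely by the 7 genes examined.

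At equal depth, single cells often carried several of the 7 genes. At least 3 were detected in 26.2% and 28.4% of lung cells, 11.5% and 11.8% of MLN cells, 6.96% to 9.79% of IL-4eGFP+ and 3.75% to 4.91% of IL-4eGFP- node cells. None was detected in 8.15% and 8.82% of lung cells, 12.3% and 10.8% of MLN cells, 14.4% to 18.2% of IL-4eGFP+ and 32.7% to 35.3% of IL-4eGFP- node cells. *Rgs1* and *Rgs2* were found together in 26.6% and 28.4% of lung cells, where the product of their single shares was 25.3% and 25.1%. *Rgs1* and *Rgs10*, which differed between the organs in opposite directions, were found together in 29.3% and 26.5% of lung cells, beside products of 29.8% and 26.0%. In lung, joint detection of this pair was thus close to the product of the single shares. The same held for the IL-4eGFP+ cells of lymph nodes (10.5% to 16.4% against 11.3% to 17.0%). In each IL-4eGFP- node sample it was above the product (4.22% to 4.87% against 3.32% to 3.95%).

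Likeness of levels was measured as Pearson's r of log2(CPM + 1) over the 12 samples, which share mice, runs and libraries, and is given without a test. Among 5867 genes that averaged 20 CPM or more, *Rgs1* was most like *Rora* (0.991), *Neurl3* (0.989) and *Il10ra* (0.987), and *Rgs2* most like *Tnfaip3* (0.994), *Dennd4a* (0.993) and *Spty2d1* (0.992). *Rgs16* was most like *Ppp1r12a* (0.972), *Soat1* (0.969) and *Zfand6* (0.962). *Rgs10* was most like *Cxcr5* (0.981), *Sra1* (0.976) and *Asap1* (0.976), and *Rgs3* most like *St8sia1* (0.967), *Tecr* (0.967) and *Atg4b* (0.964). For *Rgs19* the nearest were *Sgk1* (0.912), *H2-Q7* (0.909) and *Sh3bp1* (0.907), and for *Rgs14* *Adamts10* (0.888), *Taf8* (0.871) and *Nbr1* (0.863). Within the group, r was 0.962 for *Rgs1* and *Rgs2*, 0.9503 for *Rgs1* and *Rgs16*, 0.886 for *Rgs2* and *Rgs16* and 0.863 for *Rgs3* and *Rgs10*. It was -0.70 for *Rgs19* with either *Rgs3* or *Rgs10*. The genes were selected on these levels. For *Rgs1*, *Rgs2* and *Rgs16* both lung samples lay above all others, which alone makes r high, and r without the lung samples was not computed.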

How the data were processed

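The deposited values are UMI counts for every gene in every cell, which the authors made with Cell Ranger (versions 2.1.1, 3.0.1 and 6.1.2 per the submitters' processing notes, build mm10) without normalization. The node matrix was aggregated over both gates by the authors, and whether reads were thinned between them is not given in the sources used here. Cells were kept if they had more than 500 genes, more than 500 UMIs, a mitochondrial share under 7% and a novelty above 0.8, and in the first run also a productive TCR alpha and beta chain. Hashtags were called with HTODemux of Seurat 5.3.0 (R 4.3.3), and 1256 and 1280 hashtag doublets and 52 and 70 negatives were left out. No other doublet caller was used.

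Counts were summed per sample and compared with edgeR 4.0.16 (filterByExpr, TMM, quasi-likelihood test, Benjamini-Hochberg over all genes, 0.05), without TCR genes. The fits scale samples by TMM factors and the CPM do not, so a fold change can differ from the ratio of the CPM given beside it. Splits within samples had the sample as a block. DESeq2 1.42.0, no filter, the mouse as a block, cells thinned to 2000 UMIs and samples left out were alternatives. The SE of an edgeR value was derived as its absolute size over the square root of the F statistic, and is rough for values near 0. Intervals are exact (scipy 1.17.1) at 95%. The genes and lists were chosen with earlier results of these data known. All 7 genes entered every comparison, but the medLN, cytokine, clone and *Fos* paragraphs give values for only some of them. Those left out there were not past the threshold in the main fit. Apart from markers of other cells, other RGS genes were named with at least 100 UMIs. Of the lists at most the 2 highest and 2 lowest called genes that averaged 20 CPM or more were named. Samples with the same number came from 1 mouse, and their deviations correlated over genes with r of 0.0375 for lung and MLN, 0.237 and 0.123 for medLN and MLN in IL-4eGFP+ and IL-4eGFP- cells, and 0.152 and 0.178 between gates in medLN and MLN. One planned split of the IL-4eGFP- cells is not reported here. The plots were drawn with matplotlib 3.10.9.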

Additional observations from a re-analysis of the deposited data

Results flagged for a closer look

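The level of *Rgs19* in the 4 IL-4eGFP+ node samples had 1 sample apart, medLN 2 at 98.7 CPM against 91.4 to 91.7 CPM in the others. The gap was 0.961 of the whole range, past Dixon's critical value for 4 samples, which served only as a flag. The samples are medLN and MLN of 2 mice, and the genes were selected on these values, so this is a description and no test. Of 14 groups of 4 samples this was the only one with a sample apart, and chance alone gives about 1 in 20.

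Of 27 differences of effects tested, 2 were called and 7 had an unadjusted p below 0.05. Over all genes, the called share was 0.246% for clone expansion, 0% for *Fos*, 2.98% for *Foxp3* and 1.22% for *Il21*. The share of all genes with an unadjusted p below 0.05 was not counted for these differences. The effect of clone expansion on *Rgs16* differed between lung and MLN by -1.84 on the log2 scale (SE 0.304, edgeR adjusted p = 0.0116). *Rgs16* was lower in expanded clones in both lung libraries and higher in both MLN libraries. Of its UMIs in expanded clones, 1 cell held 10 of 19 in lung 2 and 1 cell held 9 of 14 in MLN 2. The effect of a *Foxp3* UMI on *Rgs1* differed between medLN and MLN by -0.671 (SE 0.144, edgeR adjusted p = 0.00437), with a rise in all 4 samples.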

How the results depend on the processing

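The 7 RGS genes gave 606 log2 fold changes under alternatives. In the tested splits 219 of 242 kept their direction and side of the threshold, 8 lost and 4 gained a call and 11 turned. In the described comparisons 318 of 364 moved by less than 1 SE, and 46 moved more. Of these 364, 12 changed sign, all for values that were not past the threshold as reported. Of 84 shares, 81 moved on thinning.

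Counts of called genes moved as follows, and the cause was not tested. Lung against MLN called 3285 genes, 1687 with DESeq2, 2019 with equal cell numbers, 2019 without *Fos* cells, and 1921 to 3680 with a sample left out. Between medLN and MLN in IL-4eGFP+ cells 144 were called, 47 without a filter, 220 without cells with B cell or myeloid markers, and 23 to 164 (0 to 1 of the 7) with a sample left out. In IL-4eGFP- cells 19 were called, 2 without a filter, 11 without those cells, 65 with the mouse as a block and 98 to 194 with a sample left out. Expanded clones called 19, 168 without a filter and 6 to 27 with a library left out, with 0 to 1 of the 7, and 0 of them with DESeq2. *Foxp3* called 2398, and 1595 at equal depth. *Il5* or *Il13* called 894, 95 with DESeq2 and 237 at equal depth. *Il21* called 935, 599 with DESeq2 and 598 to 834 with a sample left out. *Fos* called 24, 4 with DESeq2, 184 without a filter (2 of the 7) and 2 to 173 with a library left out (0 to 1 of the 7).

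Pairing by mouse as a block changed the call of none of the 7 genes between organs or gates, with 5 called between lung and MLN in both fits, and moved no other count of genes by over 1.5 times. Without the replicate block, the clone split called 2 genes and 0 of the 7, the cytokine split 42 genes and the *Fos* split 1 gene.

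Log2 fold changes that turned were small. In the clone split *Rgs10* ranged from -0.0513 to 0.0690 and *Rgs16* from -0.35 to 0.51 with a library left out, *Rgs16* was -0.0088 without a filter, and *Rgs14* was -0.0617 and *Rgs19* -0.0227 at equal depth. With *Il21*, *Rgs3* was -0.0502 and *Rgs19* 0.0717 at equal depth. With *Fos*, *Rgs1* was 0.0073 at equal depth, and with a library left out *Rgs3* ranged from -0.0063 to 0.31 and *Rgs14* from -0.14 to 0.0084. Where leaving out a sample left a group with 1, that sample was assumed to vary like the others. With 2 lung samples in a block, no sample could be left out of the cytokine split. Depth limits *Rgs2* and *Rgs16* in nodes, where a sample held few UMIs.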
